A study of Homo sapiens with 2 samples.

Results

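AP-1 is a family of transcription factors, and the genes described here encode its subunits. The list holds 7 genes taken by symbol: JUN, JUNB and JUND of the JUN family, FOS, FOSL1 and FOSL2 of the FOS family, and ATF3. Of these, 6 had a value among the 12353 genes of the table, whereas ATF3 had none and its level is not analysed here. The values come from global run-on sequencing (GRO-seq) of BJ cells, an established line of human skin fibroblasts, without treatment and in medium holding 10% fetal calf serum. Nuclei were supplied with brominated UTP for 5 min, engaged polymerases extended their transcripts, and the labelled RNA was captured and sequenced, so a value reports nascent transcription and neither mature mRNA nor protein. There were 2 libraries, called a and b, described by the labels as biological replicates, and they form 1 group from 1 cell line.

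An AP-1 factor is a dimer held together by leucine zippers, in which basic regions next to the zippers grip DNA. JUN proteins can pair with each other or with a FOS protein, FOS proteins need a JUN or related partner, and the pairs bind the sequence TGACTCA, known as the TPA response element, or the related cAMP response element TGACGTCA. In fibroblasts, serum, growth factors and stress act on these genes through MAP kinases. The FOS gene is known for a burst of transcription that is over soon after a stimulus, while FOSL1 and FOSL2 are known to be made for longer in growing cells. The subunit that a cell holds decides which dimers it can form, which is why the balance of subunits is of interest.

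Among the measured members JUN had the highest level and FOS the lowest. The 250 bases before the annotated start of each are shown for that reason, 5′ to 3′ on the strand of the gene. They come from RefSeq on GRCh38.p14, whereas hg19 is the build named for the values. Capitals mark a site like the AP-1 element, a CCAAT box, GC boxes or a TATA box.
JUN, chr1:58784048-58784297, minus strand: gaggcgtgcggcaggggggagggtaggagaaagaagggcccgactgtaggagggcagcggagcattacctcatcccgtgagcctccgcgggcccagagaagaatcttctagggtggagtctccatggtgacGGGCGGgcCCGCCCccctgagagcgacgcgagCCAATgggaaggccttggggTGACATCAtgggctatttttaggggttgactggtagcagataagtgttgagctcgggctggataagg
FOS, chr14:75278578-75278827, plus strand: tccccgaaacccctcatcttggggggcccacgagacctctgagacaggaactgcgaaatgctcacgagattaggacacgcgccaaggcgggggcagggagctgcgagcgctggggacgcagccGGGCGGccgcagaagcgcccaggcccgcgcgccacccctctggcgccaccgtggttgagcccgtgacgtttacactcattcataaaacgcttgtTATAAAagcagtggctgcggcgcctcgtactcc
Short windows show what 4 other promoters hold: an exact cAMP response element in JUND, an exact TPA response element just inside the FOSL2 transcript, a TATA box in JUNB and, in ATF3, the same AP-1-like site as in JUN. Each window holds 10 bases on either side of the match, which is in capitals.
JUND, chr19:18281805-18281832, minus strand: gccgcccccaTGACGTCAacccacaagg
FOSL2, chr2:28392852-28392878, plus strand: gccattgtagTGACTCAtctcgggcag
JUNB, chr19:12791445-12791470, plus strand: actagcgcggTATAAAggcgtgtggc
ATF3, chr1:212565274-212565301, plus strand: acctatgataTGACATCAtatggccact

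JUN, which encodes the founding subunit and a strong activator, stood at 150.70 and 148.25 FPKM in libraries a and b. FPKM is fragments per kilobase of the length counted for a gene, scaled to library size, and the sources used here do not give that length. The JUN mean of 149.5 ± 1.73 (SD, n = 2, as for all errors below) was 12.78 times that of the median gene, at 11.70, and 161 genes of the table lay above it. JUNB, which activates weakly and can hold JUN back, had 65.99 and 64.89 in libraries a and b, with a mean of 65.44 ± 0.778. In both of these genes the libraries lay close together, with SDs of 1.16% and 1.19% of the mean. JUND, a subunit known for steady expression that falls little when growth stops, had 40.42 and 36.26 in libraries a and b, a mean of 38.34 ± 2.94. All 3 JUN genes were thus well above the median gene in both libraries. Their values did not overlap with each other, and neither did those of 93.1% of all pairs of genes in the table.

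FOSL1, which encodes FRA1, a FOS-related protein known for its part in cell movement, was the second highest member. It had 111.48 and 118.74 in libraries a and b, with a mean of 115.1 ± 5.13, or 9.838 times the median gene. FOSL2, which encodes FRA2, had 41.37 and 34.10 in libraries a and b (mean 37.73 ± 5.14), and its SD of 13.6% of the mean was the widest among the members. FOS had 5.49 and 6.34 in libraries a and b, a mean of 5.915 ± 0.601. It was the only measured member below the median gene, at 0.5056 times its level, and 23.12% of the genes in the table were lower. No FOS value in either library came near that of another member, the nearest being 34.10 for FOSL2.

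**Figure D1:**
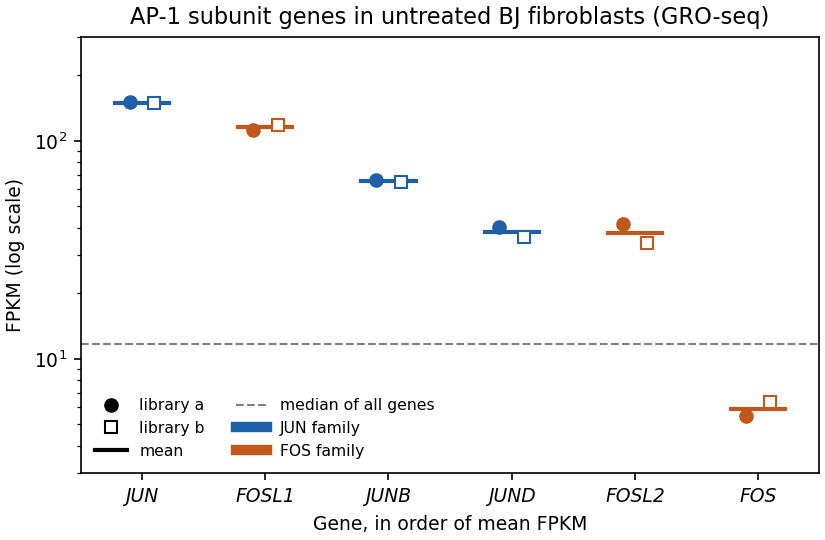
FPKM of the 6 measured AP-1 subunit genes on a log axis, in order of mean level, with filled circles for library a, open squares for library b, bars for the mean and a dashed line for the median of all genes. JUN at 149.5 and FOSL1 at 115.1 lead, JUND and FOSL2 overlap, and FOS at 5.915 is the only member under the dashed line.

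Of the 6 measured members, 5 lay above the median gene, against 50.0% of all genes, which that definition fixes. JUN and FOSL1 were at FPKM 100 or more, 2 of 6, where 2.43% of all genes were. The median over the members was 51.89, which is 4.435 times that of all genes (53.68 and 50.58 in libraries a and b). Together the members held 0.105% and 0.101% of the summed FPKM in libraries a and b. The highest member exceeded the lowest 27.4-fold and 23.4-fold in libraries a and b. ATF3 does not enter these figures, and the 6 passed whatever minimum the table has.

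The order by mean level ran JUN, FOSL1, JUNB, JUND, FOSL2 and FOS. Neighbours in it were set against the spread between libraries by asking whether their values overlapped, since an exact permutation test of 2 values against 2 cannot go below p = 0.33. For 4 of the 5 neighbouring steps the values did not overlap, a count for which no matching share over all genes was taken. JUN exceeded FOSL1 by a log2 ratio of 0.38 ± 0.0810, FOSL1 exceeded JUNB by 0.81 ± 0.0814 and JUNB exceeded JUND by 0.77 ± 0.0934. FOSL2 exceeded FOS by 2.65 ± 0.341, the widest step. JUND and FOSL2 were not separated: the log2 ratio of JUND over FOSL2 was -0.03 and 0.09 in libraries a and b. Over all 15 pairs of members, 14 had values that did not overlap, 93.3% of them, while 93.1% of all pairs of genes in the table were apart in the same way. The share was therefore that of any pair of genes, and it shows only that the spread between libraries was small beside the differences between genes.

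The balance within each family was uneven. In the JUN family JUN held 58.61% and 59.44% of the summed FPKM in libraries a and b, JUNB held 25.67% and 26.02%, and JUND 15.72% and 14.54%. In the FOS family FOSL1 held 70.41% and 74.59% in libraries a and b, and FOSL2 held 26.13% and 21.42%. The share of FOS itself was 3.467% and 3.983%, and FOSL1 and FOSL2 held the rest. These shares are over the listed genes and leave out FOSB, a FOS family gene outside the list. With FOSB counted, FOSB held 8.395% and 11.76% in libraries a and b. FOSL1 then held 64.50% and 65.82%, FOSL2 23.93% and 18.90%, and FOS 3.176% and 3.515%. JUN stood 24.93-fold above FOS, a log2 ratio of 4.75 and 4.53 in libraries a and b, and 1.299-fold above FOSL1.

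**Figure D2:**
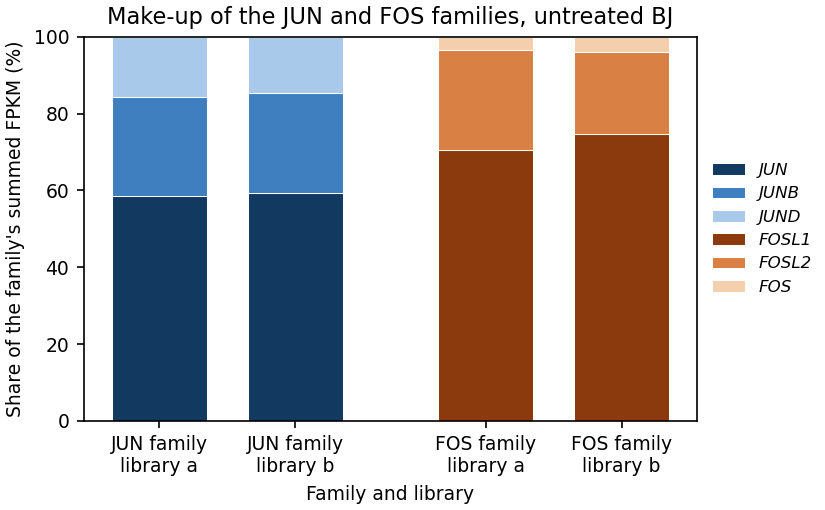
Share of each measured member in the summed FPKM of the members of its family, in percent, with a stacked bar for each library. FOSB is not in the list and is left out. JUN takes 58.61% and 59.44% of the JUN members and FOSL1 takes 70.41% and 74.59% of the FOS members, while FOS takes under 4% in both libraries.

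Between the families, the JUN genes summed to FPKM 257.11 and 249.40 in libraries a and b, and the FOS genes to 158.34 and 159.18. The JUN sum was therefore 1.624 and 1.567 times the FOS sum in libraries a and b, a log2 ratio of 0.67 ± 0.0365. FOSB, a further FOS family gene that is not in the list and is named here after its value was seen, had 14.51 and 21.21 in libraries a and b. With FOSB in the FOS family the log2 ratio was 0.52 ± 0.0746, and the JUN genes held 58.91% ± 1.25 of the sum, compared with 61.46% ± 0.599 without it. The genes of the JUN family have no introns whereas those of the FOS family do, and the sources used here state neither whether introns were counted nor which gene length was used. Ratios between genes depend on both, and their part was not tested.

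Differences between the replicates were taken after the median shift of all genes was removed. No member differed by over 1.5-fold between libraries, and 2.16% of all genes did, so a count of 0 among 6 genes is near the background and sets the members apart in no way. The largest difference was 1.199-fold in FOSL2, followed by 1.165-fold in FOS, 1.102-fold in JUND and 1.077-fold in FOSL1. JUN and JUNB each differed by 1.006-fold. The median gene differed by 1.097-fold, less than FOSL2, FOS and JUND and more than the other measured members. After that shift 4 members were higher in library a and 2, FOS and FOSL1, in library b. FOSB came near the limit at 1.47-fold.

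**Figure D3:**
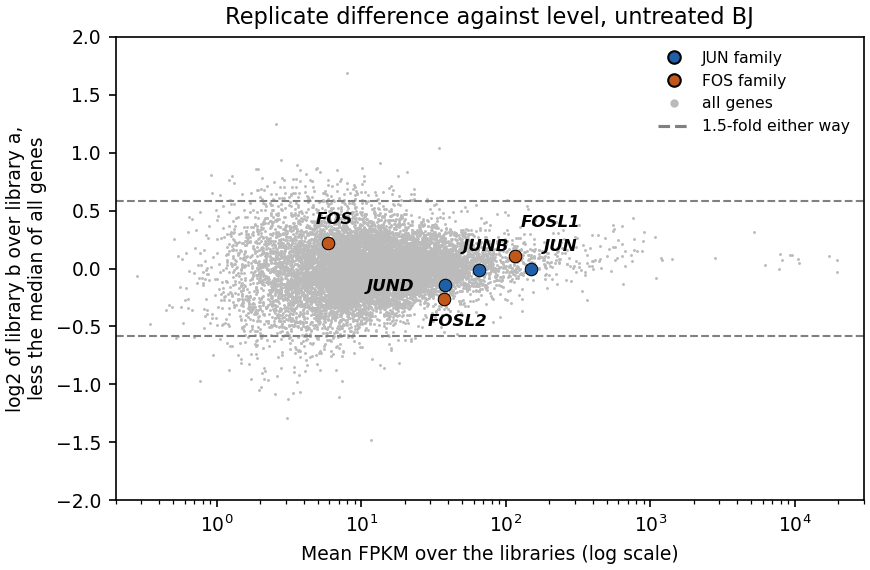
Log2 difference between library b and library a, less the median of all genes, against mean FPKM on a log axis, for all 12353 genes in grey and the members in colour. All 6 members lie between the dashed lines at 1.5-fold, and FOSL2 at 1.199-fold is the farthest from 0.

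The proteins of this family belong to the wider bZIP class, so the members were also placed among the other bZIP genes of the lists used here. Values were found for 40 of 52 bZIP genes, members included. The 34 that are not members had a median of 16.07, with 21 above the median gene, while the members had a median of 51.89 with 5 of 6 above it. Only ATF4 (217.2 ± 24.8) and DDIT3 (198.7 ± 3.05), both regulators of the stress response to amino acid shortage, were higher than JUN. NFE2L3, a relative of the antioxidant regulator NFE2L2, lay between JUN and FOSL1 at 120.6 ± 2.72, and its values overlapped with those of FOSL1. XBP1 (84.73 ± 1.97), which acts in the unfolded protein response, stood between FOSL1 and JUNB. FOS was lower than all but 6 of these other genes.

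**Figure D4:**
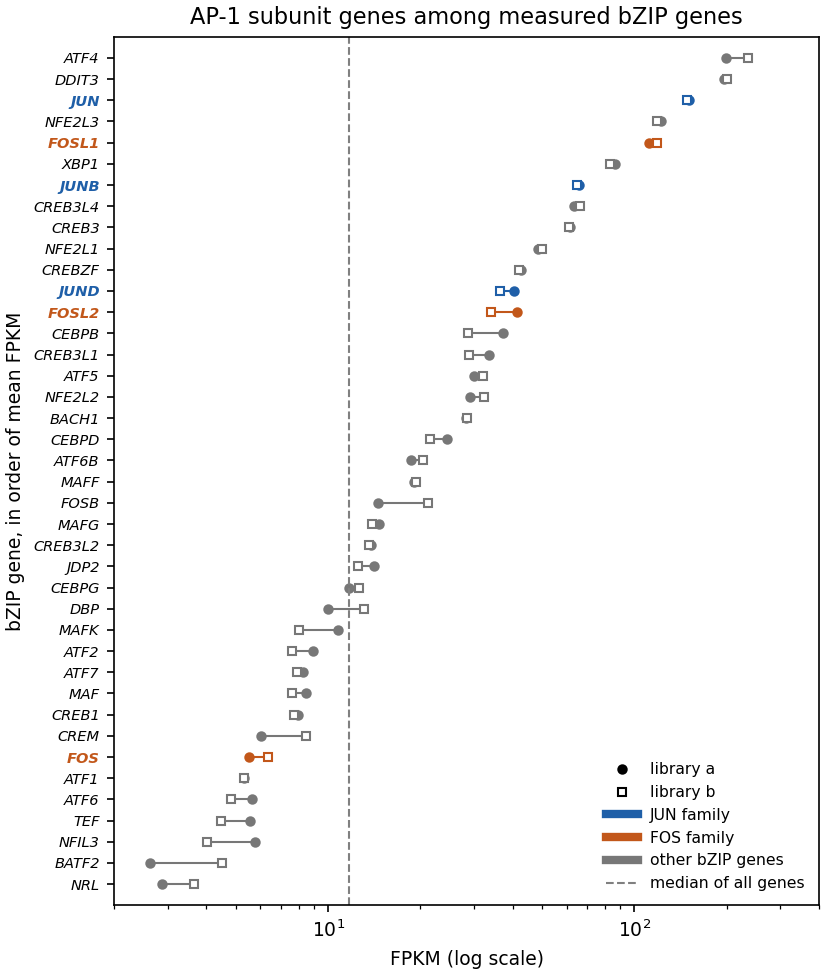
FPKM on a log axis of the 40 measured bZIP genes in order of mean level, with a filled circle for library a and an open square for library b, members in colour and the median of all genes dashed. JUN is the third and FOSL1 the fifth from the top, and FOS sits near the bottom with CREM and ATF1.

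Among the 20 partners and competitors closest to AP-1, 14 had values, with a median of 13.80, and 8 lay above the median gene. The highest of them were NFE2L3, NFE2L1 (49.22 ± 1.20), NFE2L2 (30.68 ± 2.33) and BACH1 (28.28 ± 0.297), a repressor that pairs with small MAF proteins. NRL was lowest at 3.245 ± 0.544. JDP2, a repressor that binds JUN, had 14.12 and 12.51 in libraries a and b. BATF and BATF3, which encode partners of JUN known from immune cells, had no value. The list of other bZIP factors holds 26 genes, with BATF3 again among them. Of these 20 had values, with a median of 21.27, from ATF4, DDIT3, XBP1 and CREB3L4 (64.97 ± 2.27) down to NFIL3 (4.890 ± 1.23).

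The kinases that signal to AP-1, listed together with genes of JNK scaffold proteins, were transcribed near the typical level. Values were found for 25 of the 28 genes in this list, with a median of 9.995, and 12 were above the median gene. MAPK7, which encodes ERK5, was highest at 27.30 ± 0.0495, and the p38 activator MAP2K3 (19.00 ± 2.07) and the JNK pathway kinase MAP3K11 (17.77 ± 1.84) were among the next. MAPK10, the JNK gene known from neurons, was lowest at 1.200 ± 0.311. None of these genes reached the level of JUND or FOSL2. All 17 genes listed as factors that act on FOS and JUN had values, with a median of 11.98, and 10 were above the median gene. The ETS factor genes ETS2 (46.24 ± 0.467) and ETS1 (36.43 ± 2.19) led, followed by EGR1 (28.30 ± 1.06), itself an early response gene, and the CREB coactivator gene CRTC2 (25.76 ± 0.163). MEF2C was lowest at 1.715 ± 0.0778.

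Genes that remove or restrain AP-1 had values for 19 of 20, with a median of 16.65, and 16 of the 19 lay above the median gene. The ZFP36 family, whose proteins bind AU-rich elements and speed the decay of short-lived mRNAs, stood highest. ZFP36L1 was at 91.39 ± 0.134, ZFP36 at 89.34 ± 6.07 and ZFP36L2 at 82.81 ± 1.65, each above JUNB and below FOSL1. HNRNPD, another AU-rich element binding protein gene, was at 38.19 ± 3.20, and DET1, part of a ubiquitin ligase for JUN, was lowest at 6.010 ± 0.255. The AP-1 coregulator list had values for all 16 genes and a median of 16.74, with 10 above the median gene. APEX1 (103.1 ± 14.3) and thioredoxin, TXN (56.89 ± 3.66), which keep JUN and FOS in a reduced state able to bind DNA, were among its highest genes, with the partner gene RUNX1 between them (81.97 ± 5.14). SMARCD1, a subunit of a chromatin remodelling complex, was at 22.66 ± 1.08, and the coactivator gene NCOA1 was lowest at 2.195 ± 0.389.

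Genes known as AP-1 targets had values for 34 of 40, with a median of 28.21, and 26 of the 34 were above the median gene. COL1A2 (353.0 ± 7.53), SPARC (281.6 ± 16.4) and the metallothionein gene MT2A (245.9 ± 19.0) were highest, and the cytokine gene LIF was lowest at 1.670 ± 0.311. MMP1, the collagenase gene often used to read out AP-1, had no value, and neither did MMP9, MMP10, MMP13, AREG and FASLG. The other MMP genes of the list, MMP2 (25.30 ± 2.47) and MMP3 (17.56 ± 2.79), had values, both above the median gene. These genes also answer to other factors. A single untreated group does not relate their levels to those of the subunits.

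The label of the cells was checked against markers. All 8 fibroblast genes had values, from COL1A1 at 649.3 ± 48.1 to PDGFRB at 30.31 ± 1.94. Neither of the leukocyte genes PTPRC and CD3E and none of the 3 endothelial genes PECAM1, CDH5 and VWF had a value. Of 4 keratinocyte and epithelial genes CDH1 alone did, at 1.490 ± 0.0141. The melanocyte genes PMEL (22.39 ± 2.23) and MLANA (4.530 ± 0.750) had values and TYR did not. PMEL stood above the median gene, at 1.91 times its level, and MLANA below it. These are levels in bulk culture, where fewer cells transcribing a gene and less transcription per cell cannot be told apart.

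The neighbours of the members on the chromosome showed which values could share reads. HOOK2 overlaps JUNB in the RefSeq annotation and had 13.33 and 13.79 in libraries a and b, far below JUNB. FOSL2-AS1 overlaps FOSL2 and had no value. No gene overlaps JUN, JUND, FOS or FOSL1 in that annotation. CCDC85B, the protein-coding gene next to FOSL1, had 116.71 and 114.20 in libraries a and b, within the spread of FOSL1 itself, and FIBP beyond it had 49.84 and 50.03. On the other side C11orf68 had 64.54 and 68.35, so FOSL1 lay among strongly transcribed genes. No source used here says whether counting was stranded, and any part of such neighbours in the FOSL1 value was not tested.

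JUN, JUNB, JUND and FOSL2 stood above the neighbours that had values. MYSM1 (14.85 ± 2.28) and FGGY (21.89 ± 0.339) flank JUN, both far below it. IQCN (8.315 ± 1.31) and LSM4 (15.51 ± 0.382) flank JUND, and BABAM2 (8.670 ± 1.05) lies next to FOSL2. JUNB has PRDX2 (36.19 ± 3.68) on one side and BEST2 (5.245 ± 1.05) on the other. For FOS the genes around it were higher: TMED10 had 24.38 and 18.21 in libraries a and b, and JDP2 had 14.12 and 12.51. Among the protein-coding genes of chromosome 14, JDP2 and BATF follow FOS, so 3 bZIP genes lie there in a row, and BATF had no value.

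With 2 libraries of 1 group, likeness between genes can be judged only by level in both libraries. By the distance on the log2(FPKM + 0.1) scale the genes nearest to JUN were POLR2L, a subunit of RNA polymerases (149.23 and 148.05 in libraries a and b), and YPEL4. TMBIM6 and the ribosomal protein gene RPS27A were nearest to JUNB, COASY and HNRNPD to JUND, and the cholesterol synthesis gene FDPS and CD68 to FOSL1. FBLN1, which encodes a matrix protein, and DAD1 were nearest to FOSL2. FOS had LGI4 (5.49 and 6.32 in libraries a and b) and SYT1, a gene known from synapses, as its nearest.

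The promoters differed in the elements they hold. RefSeq promoters, from 250 bases before to 50 after the start, were found for 6 of the 7 listed genes, with 2 starts for ATF3 and none for FOSL1. Motifs were sought as exact letters on both strands. TGACATCA, the variant of the AP-1 element known from JUN, began 67 bases before the JUN start and 123 before the first ATF3 start, and 2.61% of 35116 promoters hold it (1.62% of those of genes in the table). The cAMP response element TGACGTCA began 200 bases before the JUND start, with 1.85% of promoters holding it (2.82% for genes in the table). TGACTCA began at base 5 of the FOSL2 transcript and is held by 4.95% of promoters (3.57% for genes in the table). TATAAA began 33 bases before the FOS start and 31 before that of JUNB, as well as 230 before the second start of ATF3, and 11.5% of promoters hold it (6.40% for genes in the table). Neither FOS nor JUNB holds an exact match to any of the 3 AP-1 or cAMP response elements in this window. Near matches were not sought, so this says only that the exact letters are not within it.

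CCAAT was found in JUN, JUNB, JUND and at the first start of ATF3, and in 34.6% of all promoters (34.8% for genes in the table). GGGCGG, the GC box, occurred 6 times in JUND and is held by 45.0% of promoters (65.3% for genes in the table), and JUNB lacked it. The ETS site CCGGAAGT (4.14% of promoters, 7.39% for genes in the table) and the CArG box, the core of the serum response element (1.29% and 1.16%), were in none of these windows. That says only that the letters are not within them. No match overlapped another. GC content was 48.0% and 46.3% at the 2 starts of ATF3, and among the measured members it ran from 62.0% in JUN, through 64.7% in FOS, 68.7% in FOSL2 and 71.0% in JUNB to 77.0% in JUND, against a median of 64.7% over promoters of genes in the table. With 5 promoters of measured members these features are a description and are not related here to the levels.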

How the data were processed

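Nascent RNA was measured by GRO-seq in 2 untreated BJ libraries. The authors deposited FPKM values for 12353 Ensembl genes, 1 column per library. Bowtie2, HTSeq and hg19 are named, without roles, per the submitters' processing notes. The sources used here do not give the gene length, the read total, any minimum level or how strand was treated. Column letters show the group, not which numbered replicate. Depth is unknown. Among 448 genes under a mean FPKM of 2 the ratio between libraries did not pile up at a step (the fullest of the 0.02-wide log2 bins held 13 genes, and so did 2 others), so no reads were recovered and no interval is given.

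Symbols came from an Ensembl name table for 12202 genes. Means and SDs were taken over the libraries. Ratios between single genes used log2(FPKM + 0.1). The ratio of the family sums, the shares, and the folds over the median gene or the lowest member used FPKM with nothing added. Differences between libraries were taken on the log2(FPKM + 0.1) scale, less the median of all genes, at -0.02, with no filter. The count of differences was tried on simulated data, in which the changes put in were larger than the 1.5-fold limit. That does not cover changes near the limit, and no result here rests on it. No p-value was computed, since with 2 replicates the smallest exact sign-flip p is 0.5. Alternatives were each library left out, quantile normalization, pseudocounts of 1 and none, a minimum mean FPKM of 1 and mitochondrial genes left out.

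The members and the lists were chosen with earlier results of these data known. Named genes are the members, up to 4 highest and the lowest of each list, the 2 nearest in level to each member and their neighbours. Some genes that this rule or the marker lists would name are not reported here. FOSB, single bZIP and MMP genes and those without a value were named after their values were seen. RefSeq tables are on GRCh38.p14 and gave gene order and promoters only. Python 3.11.15, numpy 2.4.6, pandas 2.3.3 and matplotlib 3.10.9 were used.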

Additional observations from a re-analysis of the deposited data

How the results depend on the processing

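With 2 libraries, leaving one out moves a mean by less than the SD by construction, so the 64 values recomputed in that way are no sign of stability; among them the medians of 3 gene lists moved further. Of the other 87 recomputed values, 69 moved by no more than the SD over the libraries, or for counts by no more than 1.5 times, 18 moved further and none changed sign. Of the main results, the log2 ratio of the JUN to the FOS family alone moved further, to 0.52 with FOSB added to the FOS family, an alternative chosen after seeing the data. That ratio was 0.65 with library a left out, 0.70 with library b left out and 0.68 after quantile normalization. The median level of the members on the log2 scale, at 5.65, ran from 5.60 to 5.71 with a library left out. A pseudocount of 1 accounted for 12 of the 18, among them JUN over FOS, at 4.45 on the log2 scale. Quantile normalization moved no member's mean by more than 1.34%. The count of members above the median gene stayed at 5 under each alternative run. With 1 library left, neither overlap nor the difference between libraries can be had, so these were not recomputed.

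No paired analysis was possible because all samples form 1 group. The read depth is unknown, so counting error could not be given for any member, and an SD over 2 libraries is itself uncertain.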
